A study of Rattus norvegicus with 12 samples.

Results

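Expression of 9 genes of the p53 response and of growth arrest was followed in rat liver regenerating after partial hepatectomy (PH). The genes were chosen by name and not by a cut on their values, though earlier results of these data were known. They were CDKN1A, CDKN1B, MDM2, CCNG1, GADD45A, GADD45B, GADD45G, BTG2 and BAX. All 9 were found among the 14692 genes listed, and all 9 had a mean of at least 1 RPKM (reads scaled to transcript length and to the reads of the library) over the 12 columns, as did 8459 genes in all. RNA from whole liver of male Sprague Dawley rats was sequenced in 3 groups at 0, 4, 12 and 24 h after PH. Every rat had catheter surgery 24 h before PH and a duodenal saline infusion, so the 0 h livers were those of operated animals. Control rats had a sham biliary fistula, BF rats a biliary fistula that drained bile to the outside, and BA rats a biliary fistula with sodium taurocholate, a bile acid, given into the duodenum from 12 h before PH. No other component of bile was infused.

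The labels conflict on which group is which. Columns and sample titles carry the names BF and BA, which the study uses as given above, whereas the sample descriptions give the fistula alone to the samples titled BA and the infusion to those titled BF. The names of the titles are used here, and the assignment of BF and BA is uncertain. CYP7A1, the rate-limiting enzyme of bile acid synthesis, was at 386.9 RPKM in the BF column at 0 h, at 54.9 RPKM in BA and at 60.0 RPKM in Control. Each column is the authors' combination of 2 sequencing runs, 1 on a single rat and 1 on combined RNA of 3 rats, so each group and time had 1 value, the spread between rats is unknown and so is the number of reads. Tests were therefore made across columns: a change with time had to stand above its variation among the 3 groups, and a difference between groups above its variation among the 4 times.

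One column stood apart. The RPKM values of all genes summed to 982826 in BA at 4 h and to between 727435 and 785092 in the other columns, and the 10 most abundant genes held 53.2% of it, against 29.4% to 41.0% elsewhere. ALB (albumin) alone was at 303637 RPKM there and between 41049 and 99928 RPKM in the other 11 columns, whereas the other 6 hepatocyte markers found (7 of 8 with ALB) summed to 46160 RPKM, within their range of 41060 to 53510 RPKM elsewhere. In BF at 12 h the 12 pancreatic acinar markers found of 14 summed to 149 RPKM, against 5.22 to 23.4 RPKM elsewhere. Sums of 10 of 11 macrophage markers lay between 352.6 and 577 RPKM, of 6 of 7 neutrophil markers between 9.38 and 67.9, of 4 of 6 cholangiocyte markers between 7.91 and 19.9, of 3 of 7 endothelial markers between 38.7 and 63.3, of 6 of 7 stellate cell markers between 93.1 and 268, of 2 of 5 erythroid markers between 101 and 288.1 and of 6 of 7 lymphocyte markers between 0.57 and 4.72 RPKM. Within these lists no marker found was at 0 in all 12 columns. The part of these differences in the results below was not tested. In whole liver, fewer cells of a type and less RNA per cell cannot be told apart.

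The tumour suppressor p53 is a transcription factor that is stabilised by DNA damage and other stress and then switches on genes that arrest the cell, repair its DNA or kill it. CDKN1A encodes p21 and CDKN1B p27, inhibitors of the cyclin-dependent kinases that drive the cell from G1 into S phase. MDM2 and CCNG1 (cyclin G1) are p53 targets that feed back on p53, MDM2 by marking it for degradation. The 3 GADD45 genes encode small stress sensors that bind cell cycle and kinase partners, BTG2 is an antiproliferative gene that responds early to growth factors and stress, and BAX permeabilises mitochondria in apoptosis. After PH, hepatocytes leave quiescence in near synchrony and enter S phase within about a day in the rat, so that brakes and drivers of the cycle are expressed in the same tissue.

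To show the sequence next to the starts of these genes, the promoters of RefSeq (assembly GRCr8, 250 bases before to 50 bases after each start) were searched on both strands. Of the 9 genes 8 had an entry, all but BAX. The decamer that p53 binds, 2 copies of which make up a full response element, was present in 3 of the 8 (CDKN1A, CCNG1 and GADD45A) and in 7.98% of all 33469 promoters of the same length. The cyclic AMP response element TGACGTCA was in 1 of 8 (BTG2) and in 1.83% of all, the E-box CACGTG in 2 of 8 (GADD45B and GADD45G) and in 6.42% of all, and the TATA box TATAAA in 1 of 8 (GADD45G) and in 14.2% of all. The AP-1 motif TGANTCA (7.33% of all promoters), the STAT motif TTCNNNGAA (8.87%), the kappa B site (7.51%) and the CArG box (1.64%) had no match in the 8 promoters. None of the matches printed overlapped another. The 250 bases before the start, read 5′ to 3′ on the strand of the gene, are shown for the 3 genes with a p53 decamer and for the other 2 genes that rose at 4 h. Capitals mark the p53 decamer in CDKN1A, CCNG1 and GADD45A, TGACGTCA in BTG2 and CACGTG in GADD45B.
CDKN1A: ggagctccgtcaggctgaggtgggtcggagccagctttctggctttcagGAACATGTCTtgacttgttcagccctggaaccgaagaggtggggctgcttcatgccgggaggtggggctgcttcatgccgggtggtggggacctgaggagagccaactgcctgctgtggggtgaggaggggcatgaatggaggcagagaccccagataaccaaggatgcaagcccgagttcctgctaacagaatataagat
CCNG1: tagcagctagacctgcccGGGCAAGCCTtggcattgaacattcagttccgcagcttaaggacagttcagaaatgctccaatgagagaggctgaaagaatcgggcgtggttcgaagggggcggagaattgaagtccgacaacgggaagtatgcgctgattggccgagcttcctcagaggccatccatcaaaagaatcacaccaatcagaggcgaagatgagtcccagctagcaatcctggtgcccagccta
GADD45A: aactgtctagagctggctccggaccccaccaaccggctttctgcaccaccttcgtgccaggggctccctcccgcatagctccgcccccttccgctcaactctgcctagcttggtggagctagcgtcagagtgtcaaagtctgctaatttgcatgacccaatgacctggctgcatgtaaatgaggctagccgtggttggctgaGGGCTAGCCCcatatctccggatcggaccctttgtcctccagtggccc
BTG2: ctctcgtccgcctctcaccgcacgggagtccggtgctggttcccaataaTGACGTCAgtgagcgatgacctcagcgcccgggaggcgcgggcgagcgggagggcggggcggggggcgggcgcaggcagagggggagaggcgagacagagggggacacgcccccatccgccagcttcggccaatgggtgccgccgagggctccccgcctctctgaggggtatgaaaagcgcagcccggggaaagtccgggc
GADD45B: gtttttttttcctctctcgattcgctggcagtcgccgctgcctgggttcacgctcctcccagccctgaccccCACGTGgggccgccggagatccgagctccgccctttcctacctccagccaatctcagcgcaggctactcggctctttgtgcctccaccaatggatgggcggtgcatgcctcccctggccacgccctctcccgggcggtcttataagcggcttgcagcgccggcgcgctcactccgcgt

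In GRCr8 these stretches are chr20:7150682-7150931 on the plus strand for CDKN1A and, on the minus strand, chr10:25684877-25685126 for CCNG1, chr4:97486800-97487049 for GADD45A, chr13:48087691-48087940 for BTG2 and chr7:9430719-9430968 for GADD45B. Distances are counted from the start of the RefSeq entry shown, and any other start of these genes is not shown. The decamer began 201 bases before the start in CDKN1A, 232 bases before it in CCNG1 and 48 bases before it in GADD45A. TGACGTCA began 201 bases before the start of BTG2 and CACGTG 178 bases before that of GADD45B. A match describes the letters in this window only, and no binding was measured.

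**Figure D1:**
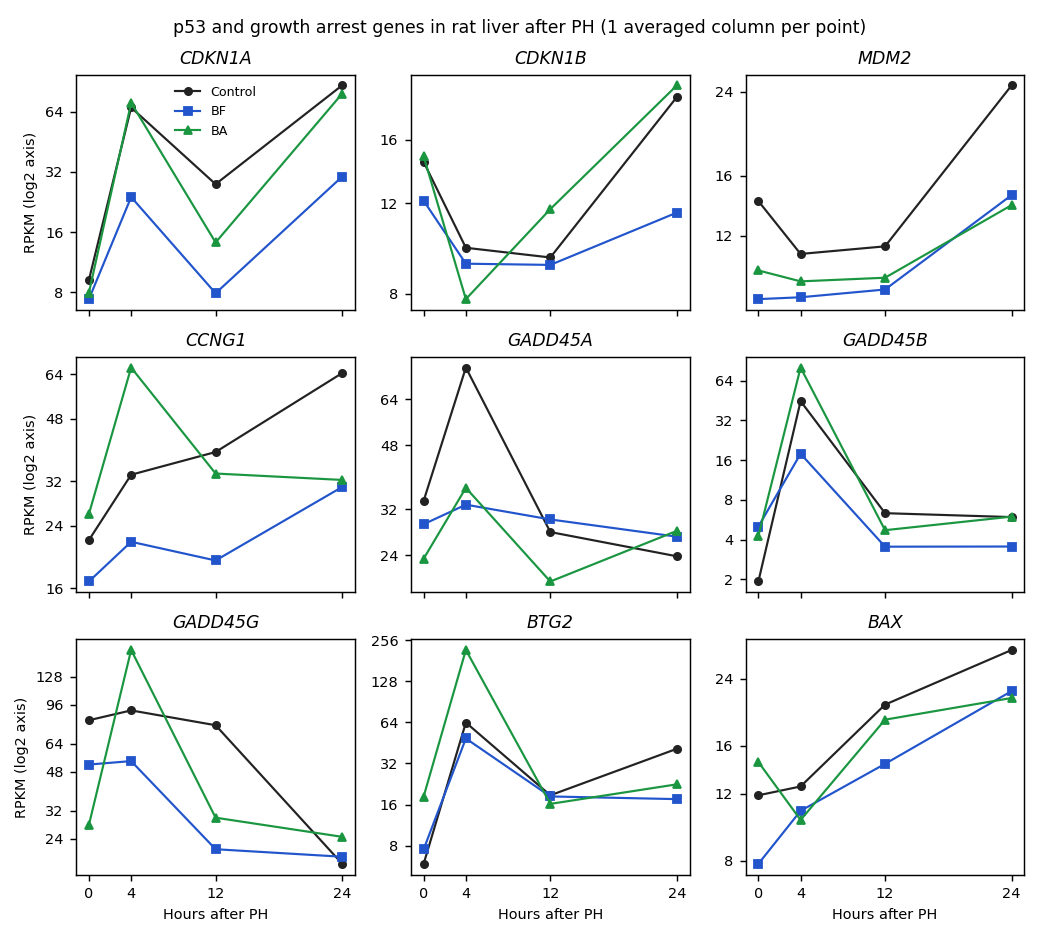
RPKM of the 9 genes (log2 axis, each panel with its own range) against hours after PH, with 1 point per column in Control (circles), BF (squares) and BA (triangles) and lines joining the 4 times of a group. CDKN1A stood high at 4 and at 24 h in all 3 groups, GADD45B and BTG2 were highest at 4 h in each group, and BAX was highest at 24 h in each group.

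In these livers the 9 genes did not move as one. Between 0 and 4 h CDKN1A, GADD45B and BTG2 rose and CDKN1B fell. GADD45B and BTG2 were lower again by 12 h, whereas CDKN1A fell and then rose a second time by 24 h. BAX was higher at 24 h than at 0 h, and so were MDM2 and CCNG1 in the values as deposited, though these 2 were not called when the columns were rescaled to the same median. The genes also differed in how far they varied: the highest column over the lowest was 41.6 for GADD45B, 36.9 for BTG2, 11.7 for CDKN1A and 9.13 for GADD45G, and between 2.62 (CDKN1B) and 4.00 (CCNG1) for the other 5. All values of fold change below are on the scale of RPKM + 1, which understates changes of weakly expressed genes, and a gene was called at an adjusted p under 0.05 over 8459 genes (limma).

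CDKN1A, the p21 gene, was at 9.24, 67.2, 27.8 and 86.8 RPKM in Control at 0, 4, 12 and 24 h, at 7.41, 24.0, 7.93 and 30.4 RPKM in BF and at 7.98, 70.9, 14.2 and 78.9 RPKM in BA. Every column at 4 h and every column at 24 h lay above every column at 0 h. Both maxima in BF were below those of the other groups. The mean over groups was 8.21 ± 0.94 RPKM at 0 h (SD over groups, n = 3 columns), 54.0 ± 26.1 at 4 h, 16.7 ± 10.2 at 12 h and 65.4 ± 30.6 at 24 h. Expression rose 5.41-fold by 4 h (log2 2.44 ± 0.28 SE, adjusted p = 0.000479), fell by 1.66 on the log2 scale between 4 and 12 h (adjusted p = 0.00603) and rose 3.83-fold between 12 and 24 h (log2 1.94 ± 0.28, adjusted p = 0.00126). At 24 h it was 6.58-fold above 0 h (log2 2.72 ± 0.28, adjusted p = 0.000279). These calls held when any 1 of the 12 columns was left out and when the columns were rescaled to the same median. The value at 12 h was 0.78 ± 0.28 above 0 h on the log2 scale and was not called (adjusted p = 0.0613).

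CDKN1B, the p27 gene, was at 14.5, 9.83, 9.41 and 19.4 RPKM in Control, at 12.2, 9.15, 9.10 and 11.5 RPKM in BF and at 14.8, 7.80, 11.7 and 20.4 RPKM in BA. The 4 h columns and the 12 h columns all lay below the 0 h columns, and the 24 h column of BF was the only one at that time under its own 0 h value. CDKN1B thus fell by 0.58 on the log2 scale by 4 h (SE 0.17, adjusted p = 0.0208), while p21 transcripts rose. The log2 ratio of 12 h to 0 h was -0.42 ± 0.17 and was not called (adjusted p = 0.0847). Expression then rose 1.60-fold from 12 to 24 h (log2 0.68 ± 0.17, adjusted p = 0.0117). The fall at 4 h was not called without the BA column at 4 h (adjusted p = 0.0855) or without any 1 of the 3 columns at 0 h. The rise from 12 to 24 h was not called after rescaling (log2 0.24, adjusted p = 0.309), nor without the Control column at 12 h or 24 h or the BA column at 24 h.

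MDM2, the ubiquitin ligase for p53, was at 14.2, 11.0, 11.4 and 24.8 RPKM in Control, at 8.83, 8.91, 9.25 and 14.6 RPKM in BF and at 10.1, 9.62, 9.79 and 13.9 RPKM in BA. Its level was nearly flat to 12 h in BF and BA, and the 24 h column was the highest in each group. Against 0 h the log2 ratio was -0.13 ± 0.13 at 4 h (adjusted p = 0.424) and -0.09 ± 0.13 at 12 h (adjusted p = 0.616), neither of them called. By 24 h MDM2 had risen 1.53-fold (log2 0.62 ± 0.13, adjusted p = 0.00673), with a rise of 1.63-fold from 12 h on (log2 0.71 ± 0.13, adjusted p = 0.00340). Both calls held without any 1 column. After rescaling neither was called (log2 0.30, adjusted p = 0.0842 against 0 h, and log2 0.27, adjusted p = 0.148 against 12 h).

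CCNG1 was at 21.9, 33.4, 38.7 and 64.6 RPKM in Control, at 16.7, 21.6, 19.2 and 30.9 RPKM in BF and at 25.9, 66.9, 33.7 and 32.3 RPKM in BA. Control was highest at 24 h and BA at 4 h, and all 3 columns at 24 h lay above those at 0 h. The log2 ratio of 4 h to 0 h was 0.76 ± 0.30 and was not called (adjusted p = 0.0644). It was 0.36 without the BA column at 4 h (adjusted p = 0.273) and was called after rescaling (log2 0.89, adjusted p = 0.0492). At 24 h CCNG1 had risen 1.85-fold (log2 0.89 ± 0.30, adjusted p = 0.0440). That call was lost after rescaling (log2 0.57, adjusted p = 0.216) and in 9 of the 12 fits without 1 column, and remained only without BA at 4 h, BA at 24 h or Control at 4 h.

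Of the 3 GADD45 genes, GADD45B was at 1.93, 44.7, 6.35 and 5.93 RPKM in Control, at 5.03, 17.9, 3.54 and 3.55 RPKM in BF and at 4.26, 80.3, 4.72 and 5.98 RPKM in BA. In each group 4 h was the highest time, and no column of another time reached the lowest column at 4 h. GADD45B rose 9.11-fold by 4 h (log2 3.19 ± 0.42, adjusted p = 0.000692) and fell by 2.84 on the log2 scale between 4 and 12 h (SE 0.42, adjusted p = 0.00438). Both calls held without any 1 column and after rescaling. Its means were 3.74 ± 1.61 RPKM at 0 h, 47.7 ± 31.3 at 4 h, 4.87 ± 1.41 at 12 h and 5.15 ± 1.39 at 24 h (SD over groups, n = 3 columns), and the comparisons of 12 and 24 h with 0 h were not called (adjusted p = 0.556 and 0.460).

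GADD45A was at 33.8, 78.1, 27.8 and 23.8 RPKM in Control, at 29.2, 33.0, 30.1 and 26.96 RPKM in BF and at 23.5, 36.7, 20.3 and 28.0 RPKM in BA. The Control column at 4 h stood well above the other 11 columns, and BF stayed between 26.96 and 33.0 RPKM throughout. The log2 ratio of 4 h to 0 h was 0.66 ± 0.25 (adjusted p = 0.0574), which was not called as deposited and was called after rescaling (log2 0.79, adjusted p = 0.0356). GADD45A fell by 0.80 on the log2 scale between 4 and 12 h (SE 0.25, adjusted p = 0.0441), a call that was kept in 4 of the 12 fits without 1 column, those without Control at 24 h, BF at 4 h, BF at 12 h or BA at 24 h. The log2 ratio without the Control column at 4 h was -0.46.

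GADD45G was at 81.7, 90.5, 77.6 and 18.5 RPKM in Control, at 51.7, 53.6, 21.5 and 19.9 RPKM in BF and at 27.7, 169, 29.8 and 24.5 RPKM in BA. It had the highest mean of the 9 genes, 55.5 RPKM over the 12 columns. The groups ran apart: the BA column stood above all others at 4 h, BF was lower at 12 than at 4 h and Control was still at 77.6 RPKM at 12 h, while at 24 h the 3 columns lay within 18.5 to 24.5 RPKM, below every column at 0 h. No comparison between times was called. The log2 ratio to 0 h was 0.92 ± 0.48 at 4 h (adjusted p = 0.147), -0.40 ± 0.48 at 12 h (adjusted p = 0.559) and -1.20 ± 0.48 at 24 h (adjusted p = 0.0796). Without the BA column at 4 h the value at 24 h was called (log2 ratio -1.20, adjusted p = 0.0379).

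BTG2 was at 5.89, 63.8, 18.7 and 41.0 RPKM in Control, at 7.53, 48.8, 18.4 and 17.5 RPKM in BF and at 18.3, 217.1, 16.2 and 22.5 RPKM in BA. Every column at 4 h lay above every column at 0, 12 and 24 h, with BA at 4 h the highest value of any of the 9 genes. At 12 h the 3 groups were within 16.2 to 18.7 RPKM. BTG2 rose 8.52-fold by 4 h (log2 3.09 ± 0.47, adjusted p = 0.00125), and the rise was 2.54 on the log2 scale without the BA column at 4 h (adjusted p = 0.00491). It fell by 2.25 between 4 and 12 h (SE 0.47, adjusted p = 0.0114), which was not called without the BA column at 12 h (adjusted p = 0.0542). The value at 24 h was 1.34 ± 0.47 above 0 h and was not called (adjusted p = 0.0521), though it was without the BA column at 4 h (adjusted p = 0.0246).

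BAX was at 11.9, 12.5, 20.5 and 28.5 RPKM in Control, at 7.86, 10.8, 14.4 and 22.3 RPKM in BF and at 14.5, 10.2, 18.7 and 21.4 RPKM in BA. Its means were 11.4 ± 3.4 RPKM at 0 h, 11.2 ± 1.2 at 4 h, 17.9 ± 3.2 at 12 h and 24.1 ± 3.9 at 24 h (SD over groups, n = 3 columns). The 12 h columns all lay above the 4 h columns and the 24 h columns above the 12 h columns. The comparison of 4 h with 0 h gave a log2 ratio of 0.0071 ± 0.16 (adjusted p = 0.976). BAX rose 1.54-fold from 0 to 12 h (log2 0.63 ± 0.16, adjusted p = 0.0185) and 2.05-fold from 0 to 24 h (log2 1.04 ± 0.16, adjusted p = 0.00205), both of them called after rescaling as well. The call at 12 h was lost without Control at 0 h, Control at 12 h, BF at 0 h or BA at 12 h, and that at 24 h held without any 1 column. The step from 12 to 24 h was not called (log2 0.41, adjusted p = 0.0633).

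Counted together, 3 of the 9 genes rose and 1 fell between 0 and 4 h. Of all 8459 genes, 45.3% were called in that comparison, 12.9% higher and 32.4% lower. Between 0 and 12 h 1 of 9 rose and none fell at the threshold, against 31.5% of all genes called and 9.03% higher. An unadjusted p under 0.05 in the same fit was seen for 3 of the 9 genes and for 3636 of all 8459 genes. Between 0 and 24 h 4 of 9 rose, against 36.1% called and 30.6% higher among all genes. From 4 to 12 h 4 of 9 fell and 1 rose, against 25.9% of all genes called, 12.0% lower and 13.9% higher. From 12 to 24 h 3 of 9 rose, against 45.3% of all genes called and 43.6% higher. Without a test, the 3 columns of the 2 times did not overlap for 4 of 9 genes at 4 h against 0 h, where 47.2% of all genes did not, for 1 of 9 at 12 h (44.9%) and for 4 of 9 at 24 h (49.5%) against 0 h. From 4 to 12 h this held for 4 of 9 genes (37.0% of all genes) and from 12 to 24 h for 3 of 9 (59.0%).

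The median of all genes itself moved, with log2 ratios to 0 h of -0.20 at 4 h, -0.12 at 12 h and 0.21 at 24 h, and 0.33 from 12 to 24 h. The medians of the 9 genes were 0.76, 0.35, 0.62 and 0.44. Rescaling brought the medians of all genes to between -0.08 and 0.07, and with it the share of higher calls among all calls went from 84.7% to 37.6% at 24 h against 0 h, from 96.0% to 40.4% at 24 h against 12 h, from 28.4% to 41.9% at 4 h and from 28.7% to 49.1% at 12 h against 0 h. After rescaling, 5 of the 9 genes were called higher and 1 lower at 4 h against 0 h, with CCNG1 and GADD45A added. Of all genes, 18.1% were then called higher and 25.1% lower. At 24 h against 0 h 2 were called higher (CDKN1A and BAX), against 10.3% of all genes higher and 17.1% lower. At 24 h against 12 h 1 was called higher (CDKN1A), against 7.47% of all genes higher and 11.0% lower.

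**Figure D2:**
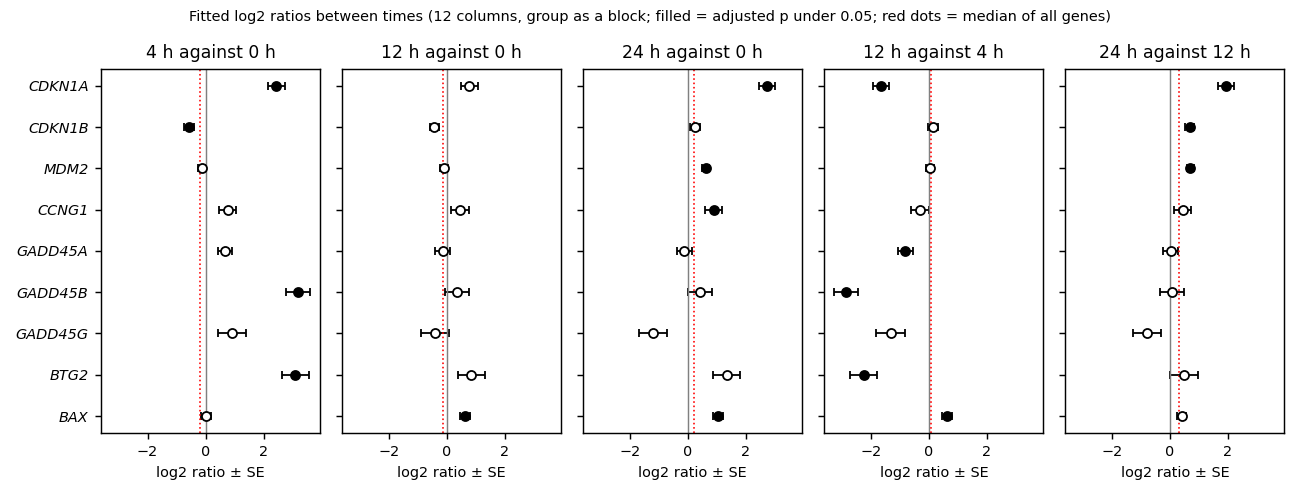
Fitted log2 ratios of RPKM + 1 between times for the 9 genes (points, with bars of 1 SE, over 12 columns with group as a block), filled where the adjusted p was under 0.05, with the median of all genes as a dotted line. GADD45B, BTG2 and CDKN1A lay above 2 at 4 h against 0 h, and of these CDKN1A alone did at 24 h against 0 h.

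None of the 9 genes passed the threshold between groups over the 4 times, in a test that asks for a difference shared by all of them. Of all genes, 0.804% were called between BF and Control (27 higher and 41 lower in BF, or 37 and 19 after rescaling), 0.0709% between BA and Control and 0.0118% between BF and BA. At an unadjusted p under 0.05 there were 4 of the 9 genes and 1852 of all genes between BF and Control, 1 and 1919 between BA and Control, and 2 and 661 between BF and BA. All 9 fitted values were below 0 for BF against Control, with a median of -0.39 against -0.11 for all genes. The share of all genes below 0 was not counted. After rescaling the 9 values were still below 0, with a median of -0.00061 for all genes. CDKN1A was then at -1.11 (adjusted p = 0.117) and MDM2 at -0.35 (adjusted p = 0.163). In the values as deposited CDKN1A came nearest to the threshold, at 2.34-fold lower in BF (log2 ratio -1.23 ± 0.24, adjusted p = 0.0571), followed by MDM2 (log2 ratio -0.47 ± 0.11, adjusted p = 0.0834), CCNG1 (-0.75 ± 0.26, adjusted p = 0.158) and BAX (-0.39 ± 0.14, adjusted p = 0.164). Against BA, CDKN1A was 1.91-fold lower in BF (log2 ratio -0.93 ± 0.24, adjusted p = 0.448) and CCNG1 1.69-fold (-0.76 ± 0.26, adjusted p = 0.522). With the group names of the sample descriptions, the values given here for BF belong to BA and the reverse.

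Time by time, the groups could be set side by side but not tested. CDKN1A, CDKN1B, MDM2, CCNG1 and BAX, 5 of the 9 genes, were lower in BF than in Control at 4 of 4 times, as were 27.3% of all genes. CDKN1A and CCNG1 were also lower in BF than in BA at 4 of 4 times (6.51% of all genes), and MDM2 was lower in BA than in Control at 4 of 4 times (28.9% of all genes). The gap in CDKN1A was small before PH and larger after it: its log2 ratio of BF to Control was -0.28 at 0 h, -1.45 at 4 h, -1.69 at 12 h and -1.49 at 24 h. BF was at least 2-fold lower than Control for 3 of 9 genes at 4 h (CDKN1A, GADD45A and GADD45B), where 3.16% of all genes were, for 2 at 12 h (CDKN1A and GADD45G, 1.68% of all genes) and for 3 at 24 h (CDKN1A, CCNG1 and BTG2, 1.31% of all genes). At 0 h only GADD45B passed 2-fold, and it was higher in BF (log2 1.04), as were 1.73% of all genes. Since these comparisons use the same Control columns as those of BA, each stands as its own description.

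The widest separation was between BF and BA at 4 h. There 5 of 9 genes were at least 2-fold lower in BF, with log2 ratios of -2.13 for BTG2, -2.11 for GADD45B, -1.64 for GADD45G, -1.59 for CCNG1 and -1.52 for CDKN1A, against 2.33% of all genes. The median of the 9 was -1.52 and that of all genes 0.15. The BA column at 4 h is the column that stood apart in its sum and in ALB, and the part of that in these values was not tested. CDKN1A was at nearly the same level in that column as in Control at 4 h (log2 ratio 0.08), whereas BTG2 was higher there than in Control (log2 1.75) and GADD45A was lower (log2 ratio -1.07). For BA against Control, 1 of 9 was at least 2-fold higher and 1 lower at 0 h (BTG2, log2 1.49, and GADD45G, log2 ratio -1.53), beside 1.87% and 2.15% of all genes. The counts were also 1 and 1 at 4 h (2.02% and 5.26% of all genes), and at 12 h GADD45G alone was at least 2-fold lower in BA (log2 ratio -1.35, 1.12% of all genes).

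**Figure D3:**
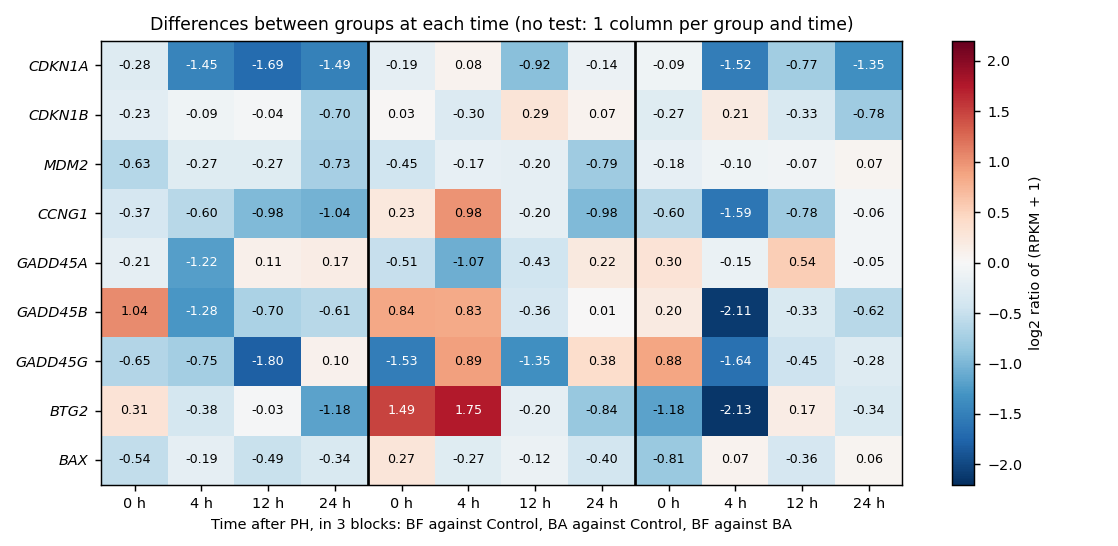
Log2 ratios of RPKM + 1 between groups for the 9 genes (rows) at each time (columns), in blocks of BF against Control, BA against Control and BF against BA, with blue for lower and red for higher values, 1 column per group and time and no test. The row of CDKN1A is blue at all 4 times in both blocks of BF, and in the last block 5 genes are below -1 at 4 h.

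Within each group the same times can be read as ratios to 0 h. At 4 h 4 of 9 genes were at least 2-fold higher in Control (4.01% of all genes), 3 in BF (5.13%) and 5 in BA (4.61%), and CDKN1A, GADD45B and BTG2 were among them in each group. At 12 h 3 of 9 were at least 2-fold higher in Control (3.96% of all genes), 1 in BF (2.46%) and none in BA (1.29%), and GADD45G was at least 2-fold lower in BF (log2 ratio -1.23, 5.15% of all genes). By 24 h there were 5 in Control (8.29%), 3 in BF (9.27%) and 1 in BA (3.83%), and GADD45G was at least 2-fold lower in Control and BF, as were 3.03% and 1.88% of all genes. How the groups differed in their course was not tested, since there was 1 column for each.

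Genes that act on p53 were counted next. The counts of this and the following lists stand beside shares of all genes called higher and lower of 12.9% and 32.4% at 4 h, 9.03% and 22.5% at 12 h and 30.6% and 5.54% at 24 h against 0 h, 13.9% and 12.0% from 4 to 12 h, and 43.6% and 1.8% from 12 to 24 h, and no test compared a list with other genes. Counts after rescaling stand beside other shares. These were 18.1% and 25.1% at 4 h, 16.1% and 16.7% at 12 h and 10.3% and 17.1% at 24 h against 0 h. From 12 to 24 h they were 7.47% and 11.0%. Of the 24 listed genes of the p53 regulator list, 17 were found and tested. Between 0 and 24 h 14 of 17 rose and none fell at the threshold, with a median log2 ratio of 0.52 against 0.21 for all genes, but after rescaling 5 were called. The checkpoint kinases CHEK2 (log2 1.84, adjusted p = 0.000100) and CHEK1 (log2 1.82, adjusted p = 0.00113) changed most. CHEK2 was at 1.97, 0.63, 1.41 and 11.3 RPKM in Control at the 4 times, at 1.45, 0.50, 1.91 and 9.22 RPKM in BF and at 2.41, 0.33, 1.42 and 8.07 RPKM in BA. At 4 h 1 of 17 rose, the nucleolar protein NPM1 (log2 0.94, adjusted p = 0.00241), and 3 fell, CHEK2 (log2 ratio -0.98, adjusted p = 0.00179) and the kinase HIPK2 (log2 ratio -0.64, adjusted p = 0.00212) by most. By 12 h 5 rose and 1 fell, led by the ribosomal proteins RPL23 (log2 0.74, adjusted p = 0.00213) and RPL11 (log2 0.69, adjusted p = 0.00267), which can bind MDM2.

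Other p53 target genes moved in both directions. Of 53 listed, 39 were found and 35 tested, and at 4 h 6 rose and 19 fell, with a median log2 ratio of -0.50 against -0.20 for all genes. SLC19A2, a thiamine transporter, fell by 2.26 on the log2 scale (adjusted p = 8.01e-05) and PHLDA3, an inhibitor of AKT signalling, fell as well (log2 ratio -1.92, adjusted p = 0.000369). At 12 h 1 rose and 16 fell, with the epoxide hydrolase EPHX1 (log2 ratio -2.24, adjusted p = 0.00115) lowest, followed by SLC19A2 (-1.76, adjusted p = 0.000148) and the cyclin CCNG2 (-1.59, adjusted p = 0.00150). At 24 h 7 rose and 2 fell against 0 h, which became 3 and 9 after rescaling. The G2 gene GTSE1 (log2 2.75, adjusted p = 0.00112) and the death receptor FAS (log2 1.24, adjusted p = 0.00136) were among the 7, and IGFBP3 fell (log2 ratio -1.29, adjusted p = 0.00132). From 4 to 12 h 3 rose and 5 fell, TP53INP1 by most (log2 ratio -1.69, adjusted p = 0.00837), and from 12 to 24 h 19 rose and 1 fell, or 8 and 2 after rescaling. SLC19A2 was the 1 gene of any list called between groups, higher in BF than in Control (log2 0.73 ± 0.12, adjusted p = 0.0335), a call kept in 4 of the 12 fits without 1 column, those without BF at 24 h or BA at 0, 4 or 12 h.

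The inhibitors of cyclin-dependent kinases other than p21 and p27, with the pocket proteins, were few above the filter: 6 of 9 were found and 3 tested. RBL2, the pocket protein p130 of quiescent cells, fell by 0.87 by 4 h (adjusted p = 0.00172) and by 0.93 by 12 h (adjusted p = 0.00226) on the log2 scale. CDKN2C (p18) rose by 24 h against 0 h (log2 2.75, adjusted p = 2.98e-05), as did CDKN3 (log2 4.31, adjusted p = 3.24e-06), a phosphatase that acts on cyclin-dependent kinases. CDKN3 was between 0.15 and 0.43 RPKM in the 9 columns up to 12 h and at 33.5, 29.7 and 16.7 RPKM in Control, BF and BA at 24 h. Of 12 genes that control p27, 7 were found and 6 tested. CKS2, a small subunit that works with the kinases, fell by 0.75 at 4 h (adjusted p = 0.0266) and was higher at 24 h than at 0 h (log2 2.57, adjusted p = 0.000124), and the cullin CUL1 fell by 0.33 at 12 h (adjusted p = 0.0262). In all, none of the 6 rose and 1 fell at 4 h, none rose and 2 fell at 12 h (1 and none after rescaling, CUL1 not among the calls), and 3 rose and none fell at 24 h (1 and none after rescaling).

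Relatives of BTG2 moved in both directions. All 4 listed were tested, and at 4 h BTG3 (log2 1.30 ± 0.26, adjusted p = 0.00379) and BTG1 (log2 0.94 ± 0.20, adjusted p = 0.00532) rose while TOB1 (log2 ratio -0.97, adjusted p = 0.0131) was among the 2 that fell (1 after rescaling). BTG3 was still above 0 h at 12 h (log2 1.40) and at 24 h (log2 1.55, adjusted p = 0.00251), and none of the 4 was called between 4 and 12 h, where BTG2 fell. Around BAX, 15 of 17 other BCL2 family genes were found and 10 tested. At 4 h 2 rose and 4 fell, at 12 h none rose and 4 fell, and at 24 h none rose and 2 fell. BMF, which promotes apoptosis, fell by 2.67 at 4 h on the log2 scale (adjusted p = 0.000388) and by 2.15 at 24 h (adjusted p = 0.00106). It was at 19.5, 1.43, 0.61 and 2.68 RPKM in Control, at 15.0, 0.84, 1.59 and 1.76 RPKM in BF and at 8.76, 1.77, 0.89 and 2.58 RPKM in BA. BID, another promoter of apoptosis, fell by 1.09 at 4 h (adjusted p = 0.000331) and was 1.15 higher on the log2 scale at 12 h than at 4 h (adjusted p = 0.00120). The 2 that rose at 4 h were not called without the BA column at 4 h, BNIP3 (log2 1.11, adjusted p = 0.0346) being one of them. MCL1, a further member of this family, was listed at 0 in all 12 columns, which can be a failed estimate.

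Partners of the GADD45 proteins and the stress kinases above p38 and JNK were represented by 10 of 13 genes, all tested. MAPK14, the p38 kinase, rose by 4 h (log2 1.12 ± 0.20, adjusted p = 0.00244) and fell by 0.87 between 4 and 12 h (adjusted p = 0.0149). It was at 40.8, 114.1, 57.6 and 53.9 RPKM in Control, at 39.6, 56.6, 42.7 and 49.98 RPKM in BF and at 42.2, 111.8, 46.5 and 45.0 RPKM in BA. The kinases MAP2K6 (log2 ratio -1.003, adjusted p = 0.00862) and MAP3K4 (log2 ratio -0.70, adjusted p = 0.0127) were the 2 that fell at 4 h. At 12 h none rose and 1 fell (2 and none after rescaling), and at 24 h 3 rose, 2 of them CCNB1 and CDC2, the cyclin and kinase of mitosis that GADD45 proteins can bind. Among the cell cycle readouts 16 of 19 were found and 15 tested. None rose and 1, CCND1 (log2 ratio -1.50, adjusted p = 0.0285), fell at 4 h, and that call was lost without the BA column at 4 h. None was called at 12 h against 0 h, and 14 of 15 rose by 24 h, as deposited and after rescaling, with a median log2 ratio of 3.79. CCNB1 was between 0.25 and 1.54 RPKM up to 12 h and at 95.3, 92.0 and 67.2 RPKM in Control, BF and BA at 24 h. At 24 h BF was the lowest of the 3 groups for 10 of the 15 readouts and BA for the other 5, CCNB1 among them. The share of all genes lowest in each group was not counted. The median log2 ratio to Control at 24 h of all 8459 genes, not of the readouts, was -0.11 in BF and -0.17 in BA. PCNA, named after its values were seen, was at 381.3, 75.2 and 352.9 RPKM in Control, BF and BA at 24 h. The first rise of CDKN1A thus came before the cell cycle readouts were higher and the second at the time when they were. BBC3, PMAIP1, BTG1, CCNB1, CDC2 and CDK1 each stand in 2 of the lists.

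**Figure D4:**
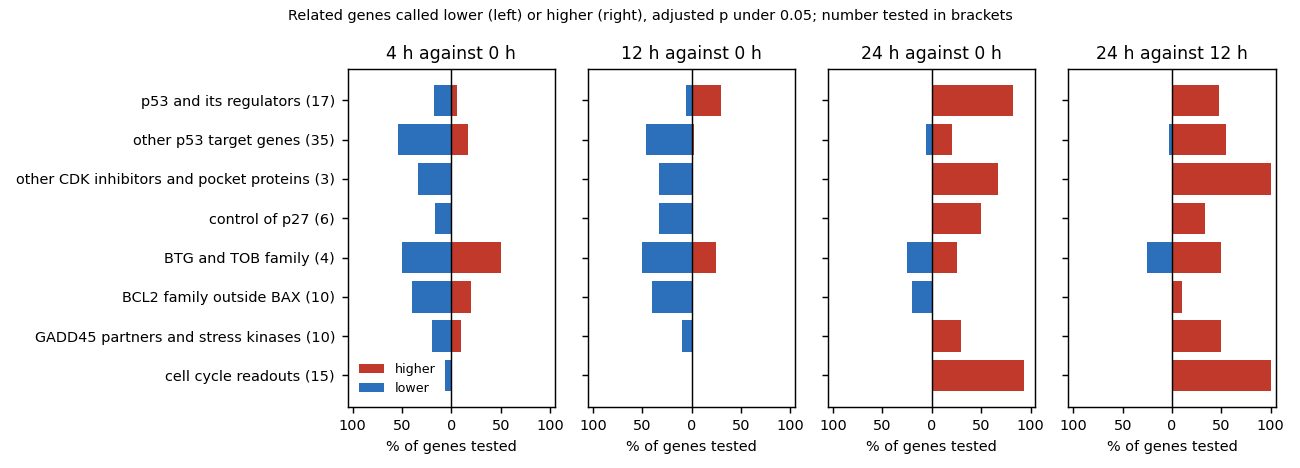
Share of tested genes called higher (right) or lower (left) in 8 lists of related genes in 4 comparisons of times, with the number tested in brackets after each list. At 4 h other p53 targets were mostly called lower, 19 of 35 (32.4% of all genes). At 24 h against 0 h the cell cycle readouts, 14 of 15, and the p53 regulators, 14 of 17, were called higher (30.6% of all genes). After rescaling 5 of 17 p53 regulators were called higher (10.3% of all genes).

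As a description of likeness, Pearson's r of log2(RPKM + 1) was taken over the 12 columns, which share libraries and times and are no independent replicates. Among the 9 genes GADD45B and BTG2 were most alike (r = 0.91), followed by CDKN1A and CCNG1 (r = 0.79) and MDM2 and BAX (r = 0.73), and GADD45G and BAX were least alike (r = -0.63). Over all genes tested, the course of CDKN1A was most like that of PPP2CA, the catalytic subunit of protein phosphatase 2A (r = 0.97), HOMER3 (0.93) and SRFBP1 (0.92). CCNG1 had ATP6V0C (0.93), RKHD2 (0.93) and the p53 target AEN (0.90), and MDM2 had DHPS, DYNC1H1 and NPEPL1 (0.96 to 0.95). GADD45B ran with SLC25A29, CPNE8 and the small GTPase GEM (each 0.96), BTG2 with B4GALT1 (0.96), PVR (0.95) and HIPK3 (0.94), GADD45A with DIRC2 (0.92), MID1 (0.91) and ADK (0.90), and GADD45G with CITED2 (0.95), ROBO4 (0.92) and CDGAP (0.89). The genes most like CDKN1B were LOC296637 (0.96), PSMD11 (0.94) and MAPK3 (0.92), and BAX was most like TAF10 (0.99), FAM3C and PSMB4 (each 0.97).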

How the data were processed

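Whole-liver RNA was sequenced by the study after TruSeq library preparation. The authors deposited 1 table of RPKM, reads normalized to transcript length and library total, with 2 decimals and 1 column for each of 3 groups at 4 times, each column combining 2 sequencing runs (1 rat, and combined RNA of 3 rats). The submitters' processing notes name CASAVA, Bowtie 0.12.2 and the builds rn4 and mm8, without roles. The counter, annotation and weighting of the runs are not given in the sources used here. RPKM depends on the library total, so a few very abundant genes lower all others, and values of 0 can be failed estimates.

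The table lists 14692 genes, of which 2303 showed only zeros and 1 was empty. Genes averaging 1 RPKM or more (8459) entered 1 additive fit of group and time on log2(RPKM + 1) with limma 3.58.1 (3 groups, 4 times, 12 columns, trend in the variance), with Benjamini-Hochberg adjustment over all of them and a threshold of 0.05. Group-by-time departures were the error, so an interaction could not be tested, and p-values measure the spread between columns, not rats. Ratios of single columns had no test, with a fold of 2 as the limit. R 4.3.3, Python 3.11.15, numpy 2.4.6, pandas 2.3.3 and matplotlib 3.10.9 were used. The fit was tested on simulated data. Alternatives were a pseudocount of 0.1, no filter, rescaled columns, no trend, no block, exchanged BF and BA names, and the omission of each column or group. All 9 genes are named, with the 3 most changed called genes of each list per comparison, and the 3 genes most alike. Some genes selected in this way are left out of the text. Genes and lists were chosen with earlier results of these data known. Promoter sequences are from RefSeq, GRCr8, which is not a build named for the table.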

Additional observations from a re-analysis of the deposited data

Results flagged for a closer look

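Some of the 9 genes moved one way from 0 h in one group and the other way in another group. Each value below is a log2 ratio of RPKM + 1 between 2 single columns, none was tested as a difference between groups, and with 1 averaged column per group and time small values of either sign arise readily. At 4 h MDM2 was at -0.34 in Control, 0.012 in BF and -0.069 in BA, and BAX was at 0.071 in Control, 0.42 in BF and -0.47 in BA.

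At 12 h 5 genes were split in this way. GADD45B was at 1.33 in Control, -0.41 in BF and 0.12 in BA, with the Control column at 0 h its lowest of all 12. GADD45G was at -0.073 in Control, -1.23 in BF and 0.10 in BA. BTG2 was at 1.52 in Control, 1.18 in BF and -0.17 in BA, where the 0 h level was 18.3 RPKM against 5.89 and 7.53 RPKM in the other groups. GADD45A was at -0.27 in Control, 0.042 in BF and -0.20 in BA, and MDM2 at -0.29, 0.060 and -0.046 in the same order.

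At 24 h GADD45B was at 1.24 in Control, -0.41 in BF and 0.41 in BA. CDKN1B was at 0.40 in Control, -0.071 in BF and 0.44 in BA, and GADD45A at -0.49, -0.11 and 0.24. CDKN1A, CCNG1 and BAX had no such split at 12 or 24 h.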

How the results depend on the processing

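With 1 averaged column per group and time, no error between rats can be had, and the unknown depth gives no limit for low values. No paired analysis was possible because each group and time has 1 column and all carry the number 1, so the numbers pair nothing, and group and time entered the fit as blocks instead. The count of 4 called genes at 4 h against 0 h stayed within 1.5 times under every alternative run. At 12 h against 0 h the count of 1 became 0 without the Control columns and 2 without the BA columns. Over all genes the calls there went from 2664 to 789 and 1821. At 24 h against 0 h the count of 4 became 2 with rescaled columns, with no group term, without the Control columns and without the BF columns. Over all genes the calls there went from 3056 to 2322, 2330, 869 and 752 in the same order. From 4 to 12 h the count of 5 became 3 with no group term, 3 without the Control columns, 2 without the BF columns and 0 without the BA columns. Over all genes the calls there went from 2191 to 1498, 665, 1017 and 254 in the same order. From 12 to 24 h the count of 3 became 1 with rescaled columns, 1 without the Control columns and 5 without the BA columns. Over all genes the calls there went from 3836 to 1566, 1067 and 2718 in the same order. The cause was not tested. With no filter, CCNG1 at 24 h and GADD45A from 4 to 12 h were not called, and with a pseudocount of 0.1 BTG2 at 24 h was. Leaving out each column in turn gave 3 to 6 called genes at 4 h, 0 to 2 at 12 h and 3 to 6 at 24 h against 0 h, 2 to 5 from 4 to 12 h, 2 to 4 from 12 to 24 h and 0 to 0 in the comparisons of groups. Over all genes the calls between times were then 2786 to 3758, 1245 to 2956, 1670 to 3392, 894 to 2283 and 2264 to 4270 in the same order. The counts of 0 between groups held under every alternative, the exchange of names included, as did the counts past 2-fold within 1.5 times.

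Rescaled columns turned the sign of 7 values that were not called: MDM2 at 12 h (0.037) and CDKN1B at 24 h (log2 ratio -0.058) against 0 h, CCNG1 (-0.020), GADD45A (-0.43), GADD45B (-0.32) and BAX (-0.042) from 12 to 24 h, and BAX in BA against Control (0.0093). Leaving out 1 column turned further uncalled values, with these ranges of log2 ratios: BAX at 4 h -0.15 to 0.22, GADD45B at 12 h -0.085 to 0.87 and at 24 h -0.016 to 0.93, GADD45A at 24 h -0.31 to 0.13, all against 0 h. From 4 to 12 h they were CDKN1B -0.027 to 0.30, MDM2 -0.055 to 0.13 and CCNG1 -0.56 to 0.089, and from 12 to 24 h GADD45A -0.17 to 0.28, GADD45B -0.17 to 0.29 and BTG2 -0.0055 to 0.92. Between groups they were BTG2 in BF against Control -0.58 to 0.055, CDKN1B -0.065 to 0.16 and CCNG1 -0.29 to 0.29 in BA against Control, and GADD45G in BF against BA -0.77 to 0.051. Of 288 values and counts under the other alternatives 272 kept direction and call. Over all genes, the calls between BF and Control went from 68 to 2 with no filter, to 1 with no time term and to between 2 and 77 when 1 column was left out (2 or 3 without Control or BF at 0 or 4 h, 10 without BF at 12 h, 18 without Control at 24 h and 28 without BF or BA at 24 h), and those at 24 h against 12 h from 3836 to 1566 with rescaled columns. Counts of the related genes with rescaled columns, and without BA at 4 h or BF at 12 h, were added after the data were seen.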
